A study of Rattus norvegicus with 60 samples.

Results

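The 10 genes described here are rat genes that hepatic stellate cells and other mesenchymal cells of the liver are known to express: Hgf, Lrat, Des, Rgs5, Sparc, Col1a1, Col1a2, Col3a1, Dcn and Timp1. They were taken by gene symbol from a table of raw read counts that lists 32883 genes, and each symbol matched 1 gene ID. After a filter on low counts 12167 genes were tested, among them 9 of the 10. Col1a2 was not tested, because 40 of the 60 libraries held 0 reads of it.

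The study gave perfluorooctanoic acid (PFOA), a perfluorinated fatty acid and known activator of the nuclear receptor PPARα, to male Sprague-Dawley rats by oral gavage. Water was the vehicle, the daily doses were 1, 5 and 15 mg/kg, and livers were taken after 7, 14 or 28 days. Each of the 12 groups held 5 rats, and each rat gave 1 library of polyadenylated liver RNA, 60 in all. The rats were singly housed and were 5 to 6 weeks old per the design text, and the labels give 7 to 8 weeks at day 7, 8 to 9 weeks at day 14 and 10 to 11 weeks at day 28, so that age and days of vehicle cannot be told apart. All groups share sex, strain and housing, and the comparisons are each dose with the vehicle of the same day, the vehicle groups with each other, and the doses with each other.

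Stellate cells lie between the sinusoidal endothelium and the hepatocytes, where they store vitamin A as retinyl esters and release growth factors. When activated they lose their retinoid droplets, become contractile and make fibrillar collagens, which is why collagen, desmin and TIMP-1 transcripts are commonly read in liver toxicology. Portal fibroblasts and vascular smooth muscle cells express several of the same genes, so no single gene of the panel marks stellate cells alone.

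The libraries were those of liver: all 7 hepatocyte markers were present in every library, and albumin (Alb) averaged 99450 CPM (read counts relative to library size, scaled by the trimmed mean of M-values). The total count of a library was 7965497 at the lowest, 12606152 at the median and 24770119 at the highest. The PFOA-inducible genes Acot1, Ehhadh and Cyp4a1 rose in all 9 dose comparisons, for example Ehhadh from 816.2 to 18870 CPM at 15 mg/kg on day 7. Libraries of 1 group differed along a common axis that held 58.9% of the within-group variance and on which ribosomal protein genes moved together, and a score of each library on that axis was used as a covariate in alternative fits. The score is centred on its group's mean unless called uncentred. The centred form cannot adjust for score differences between groups. In 5 libraries it was more than 1.5 SD below 0. Leaving these libraries out ended none of the 18 calls that the 9 genes received against vehicle or between vehicle days. A fit of the compared groups alone ended 7 of the 18 (Col3a1, Des and Sparc at 15 mg/kg on day 7, Dcn at 1 and Des at 15 mg/kg on day 14, Hgf at 5 mg/kg on day 28, and Sparc in vehicle). Per the design text each rat is a biological replicate.

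The sequences upstream of Hgf, Lrat and Des are shown because these genes passed the test in the largest number of dose comparisons. Each is the 250 bases before the annotated start in RefSeq's GRCr8 assembly, read 5′ to 3′ on the gene's strand, while the deposited counts were made on Rnor_6.0. Hgf lies on the minus strand (chr4:19700468-19700717), Lrat on the minus strand (chr2:170571213-170571462) and Des on the plus strand (chr9:84299376-84299625). Capitals mark matches on either strand to 4 motifs, which share no letters within these windows. They are the core promoter box with the letters TATAAA, the box named for its letters CCAAT, the Sp1-type GC box with the letters GGGCGG, and the nuclear receptor half-site with the letters AGGTCA.
Hgf: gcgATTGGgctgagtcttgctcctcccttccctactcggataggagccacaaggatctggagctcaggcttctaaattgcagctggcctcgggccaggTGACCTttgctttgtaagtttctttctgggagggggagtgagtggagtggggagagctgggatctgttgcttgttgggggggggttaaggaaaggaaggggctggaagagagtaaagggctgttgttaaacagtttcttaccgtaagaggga
Lrat: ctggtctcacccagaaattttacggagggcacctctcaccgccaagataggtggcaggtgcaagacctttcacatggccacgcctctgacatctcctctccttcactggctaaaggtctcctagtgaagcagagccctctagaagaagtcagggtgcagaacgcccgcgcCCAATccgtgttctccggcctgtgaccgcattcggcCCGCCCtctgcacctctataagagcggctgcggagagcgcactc
Des: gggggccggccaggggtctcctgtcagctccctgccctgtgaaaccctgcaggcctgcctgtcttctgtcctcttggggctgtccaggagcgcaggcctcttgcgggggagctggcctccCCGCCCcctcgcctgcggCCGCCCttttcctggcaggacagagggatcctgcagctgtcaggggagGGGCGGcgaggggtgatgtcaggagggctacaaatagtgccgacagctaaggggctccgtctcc
The Hgf window held the reverse complements of CCAAT and AGGTCA, the latter from 152 to 147 bases before the start. The Lrat window held CCAAT from 80 to 76 bases before the start and a reverse GC box from 44 to 39. The Des window held 3 GC boxes, and none of the 3 windows held TATAAA. Of 33469 rat promoter windows of this length, 14.1% held the half-site, 34.0% the CCAAT box, 30.5% the GC box and 12.9% the core promoter box, and a match is a run of letters, not a measured site.

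Across the panel every change that passed the test was a decrease. A call here is a Benjamini-Hochberg adjusted p below 0.05 in edgeR's quasi-likelihood test, fitted over all 12167 genes and 60 libraries, and log2 fold changes are given with their standard errors. In bulk liver RNA fewer cells of a type and less RNA per cell cannot be told apart. On day 7, 0 of 9 genes fell at 1 mg/kg, where 0.0247% of all genes were called lower, and 0 of 9 fell at 5 mg/kg, where 2.87% were. At 15 mg/kg on day 7, 4 fell (Hgf, Sparc, Col3a1 and Des), against 7.21% of all genes.

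On day 14, 3 genes fell at 1 mg/kg (Hgf, Lrat and Dcn; all genes 2.95%), 2 at 5 mg/kg (Hgf and Lrat; all genes 5.27%) and 5 at 15 mg/kg (Hgf, Lrat, Sparc, Des and Timp1; all genes 10.2%). On day 28, 0 fell at 1 mg/kg (all genes 1.38%), 1 at 5 mg/kg (Hgf; all genes 4.85%) and 2 at 15 mg/kg (Hgf and Des; all genes 8.31%). None rose at any dose in this fit, while at 15 mg/kg 6.77%, 12.7% and 8.89% of all genes rose on days 7, 14 and 28. The median log2 fold change of the 9 genes at 15 mg/kg was -0.99, -0.94 and -0.47 on the 3 days, beside -0.03, 0.04 and -0.01 for all genes tested. Col1a1 and Rgs5 passed in no dose comparison.

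**Figure D1:**
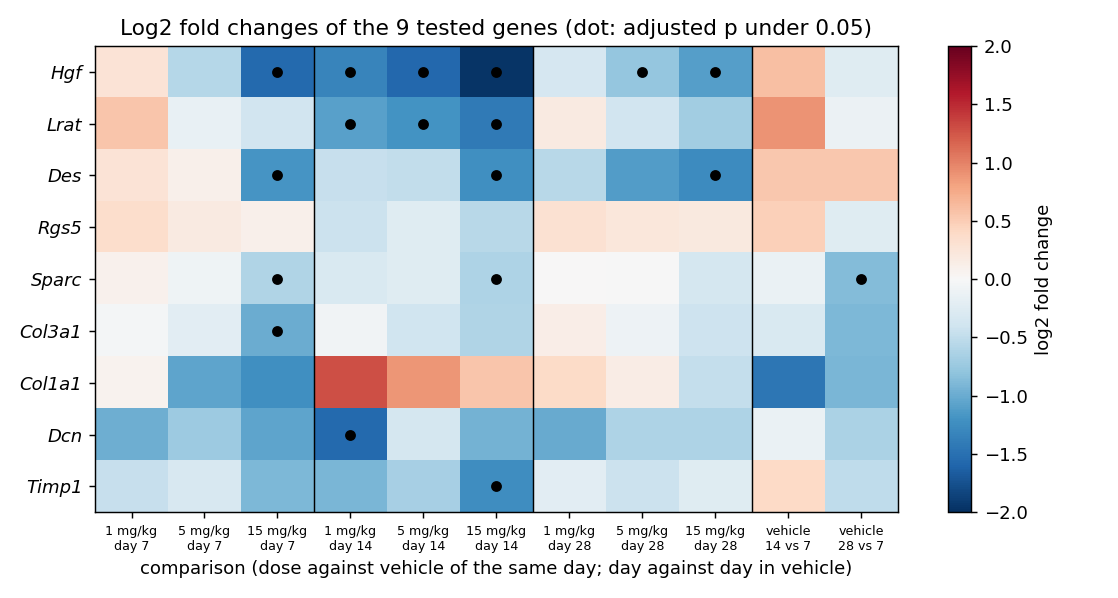
Colour gives the log2 fold change of each of the 9 tested genes (rows) in each comparison (columns), blue lower and red higher, and a dot marks an adjusted p below 0.05. Dots lie on blue cells only, Hgf has 6 of them among the 9 dose comparisons, and Col1a1 and Rgs5 have none.

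Hgf (ENSRNOG00000007027) encodes hepatocyte growth factor, which nonparenchymal cells, stellate cells foremost, secrete and which hepatocytes receive through the receptor Met. On day 7 the 5 vehicle livers had 49.2, 34.15, 45.71, 61.52 and 41.85 CPM of Hgf. At 1 mg/kg the values were 58.28, 50.73, 72.27, 52.37 and 46.29 CPM, and at 5 mg/kg 26.82, 20.98, 41.29, 32.63 and 34.72 CPM. The livers at 15 mg/kg had 18.83, 18.33, 15.47, 15.67 and 10.93 CPM. The 15 mg/kg livers all lay below every vehicle liver, while 9.77% of all genes had ranges apart in either direction, and the other doses overlapped vehicle. Hgf fell 2.93-fold at 15 mg/kg (log2 fold change -1.55 ± 0.23, adjusted p = 1.26e-06, edgeR). At 5 mg/kg the difference was -0.57 ± 0.22 with an adjusted p of 0.125, and at 1 mg/kg it was 0.27 ± 0.22 with an adjusted p of 1. With the library score as a covariate the 5 mg/kg difference passed (adjusted p = 0.0166, log2 fold change -0.56).

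On day 14 vehicle livers had 61.33, 58.54, 76.16, 100.6 and 55.57 CPM of Hgf, the highest of the 12 groups. The livers had 23.61, 23.68, 26.78, 30.89 and 36.56 CPM at 1 mg/kg, and 39.55, 20.75, 18.64, 19.55 and 20.64 CPM at 5 mg/kg. Those at 15 mg/kg had 13.81, 16.46, 20.09, 21.36 and 18.59 CPM. Every treated liver of day 14 lay below every vehicle liver of that day. Hgf fell 2.49-fold at 1 mg/kg (-1.31 ± 0.22, adjusted p = 0.000116), 2.96-fold at 5 mg/kg (-1.56 ± 0.22, adjusted p = 1.19e-06) and 3.90-fold at 15 mg/kg (-1.962 ± 0.227, adjusted p = 4.64e-09). Ranges lay apart in either direction for 7.68%, 7.98% and 12.6% of all genes in these 3 comparisons.

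On day 28 vehicle livers had 52.81, 45.32, 23.33, 28.64 and 45.47 CPM of Hgf. The values were 31.99, 40.09, 29.44, 17.96 and 35.09 CPM at 1 mg/kg and 21.17, 24.99, 19.64, 26.51 and 22.08 CPM at 5 mg/kg. Livers given 15 mg/kg had 16.51, 22.07, 22.34, 16.85 and 13.34 CPM, all below the lowest vehicle liver, and ranges lay apart in either direction for 10.7% of all genes. Hgf fell 1.71-fold at 5 mg/kg (-0.77 ± 0.22, adjusted p = 0.0148) and 2.15-fold at 15 mg/kg (-1.10 ± 0.22, adjusted p = 0.000194), and the 1 mg/kg difference was -0.34 ± 0.22 (adjusted p = 0.32). The 5 mg/kg call was lost without the highest vehicle liver, replicate 1 (adjusted p = 0.0687). Ordered by their means the 12 groups ran from 15.85 CPM (15 mg/kg, day 7) to 70.43 CPM (vehicle, day 14), and the ranges of all 11 pairs of neighbouring groups overlapped.

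The size of the Hgf difference at 1 mg/kg changed between days. The day 14 effect was lower than the day 7 effect by -1.58 ± 0.31 on the log2 scale (adjusted p = 0.0127), a test in which 0.148% of all genes were called in either direction. The day 28 effect at 1 mg/kg differed from that of day 7 by -0.61 ± 0.31 (adjusted p = 0.809). Between 15 mg/kg and vehicle the effects of days 14 and 7 differed by -0.41 ± 0.31 (adjusted p = 0.996, 95% interval -1.02 to 0.20). The vehicle group of day 14 enters each day 14 effect, and Hgf in vehicle was 0.60 ± 0.22 higher on the log2 scale on day 14 than on day 7 without passing the test (adjusted p = 0.942).

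Lrat (ENSRNOG00000025608) encodes lecithin retinol acyltransferase, which esterifies retinol for storage and in liver is known chiefly from stellate cells. On day 14 vehicle livers had 68.99, 68.82, 57.98, 45.3 and 65.35 CPM of Lrat. At 1 mg/kg the livers had 19.12, 24.16, 29.63, 24.18 and 47.39 CPM, and at 5 mg/kg 35.57, 41.84, 22.11, 19.76 and 14.12 CPM. At 15 mg/kg they had 21.04, 17.95, 23.44, 27.85 and 24.12 CPM. At 1 mg/kg 1 liver reached into the vehicle range, and at the higher doses none did. At 5 and 15 mg/kg ranges lay apart in either direction for 7.98% and 12.6% of all genes. Lrat fell 2.12-fold at 1 mg/kg (-1.08 ± 0.26, adjusted p = 0.00901), 2.29-fold at 5 mg/kg (-1.20 ± 0.26, adjusted p = 0.00093) and 2.68-fold at 15 mg/kg (-1.42 ± 0.26, adjusted p = 5.09e-05). All 3 calls held in each fit that left out 1 library and in the 9 alternative fits.

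The Lrat decreases were measured against the highest of the vehicle groups, and on the other days no dose passed. On day 7 vehicle livers had 44.68, 33.56, 19.32, 29.15 and 37.18 CPM of Lrat. On that day the livers had 65.9, 56.09, 48.88, 22.64 and 47.48 CPM at 1 mg/kg, 22.08, 27.71, 32.05, 37.9 and 27.64 CPM at 5 mg/kg and 26.14, 25.87, 26.67, 31.2 and 15.82 CPM at 15 mg/kg. Every dose overlapped vehicle on day 7, with log2 fold changes of 0.56 ± 0.26, -0.15 ± 0.26 and -0.38 ± 0.26 and adjusted p-values of 0.805, 0.789 and 0.386. The effect at 1 mg/kg was lower on day 14 than on day 7 by -1.64 ± 0.37 on the log2 scale (adjusted p = 0.0472). Of the Hgf and Lrat calls in this test of days, at most 1 was left in 15 of the 20 fits that left out 1 library and 0 without vehicle replicate 4 of day 14, and 0 were left in a fit of the compared groups alone. At 15 mg/kg the same difference between days was -1.04 ± 0.36 (adjusted p = 0.996).

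On day 28 Lrat stood at 24.38, 29.87, 19.4, 26.38 and 51.6 CPM in vehicle and at 20.36, 20.5, 22.07, 13.85 and 16.6 CPM at 15 mg/kg. The groups overlapped and the difference missed the threshold (-0.70 ± 0.26, adjusted p = 0.0519), which it passed in 6 of the 9 alternative fits with adjusted p-values from 0.0177 to 0.0431. At 1 and 5 mg/kg on day 28 Lrat ran from 26.97 to 41.11 and from 19.92 to 30.69 CPM, and neither dose passed. All 11 pairs of neighbouring groups overlapped in their ranges for Lrat as well.

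**Figure D2:**
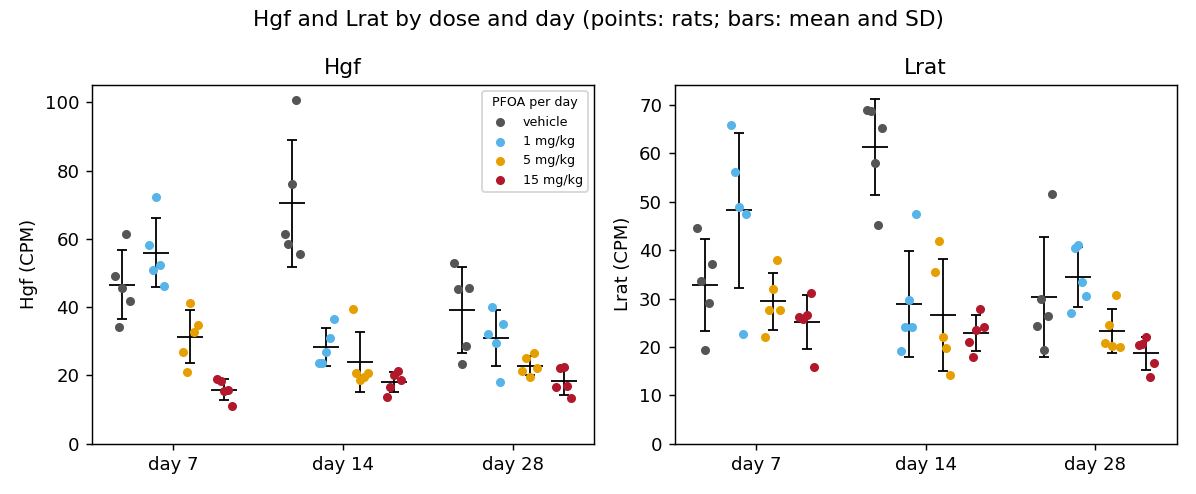
Points are the CPM of Hgf (left) and Lrat (right) in each rat, by day on the x axis and dose by colour, and bars give the group mean and SD (n = 5). The vehicle group of day 14 is the highest of the 12 for both genes, with means of 70.43 and 61.29 CPM, and all 15 mg/kg means lie between 15.85 and 25.14 CPM.

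Des (ENSRNOG00000019810) encodes desmin, the muscle-type intermediate filament used to stain stellate cells in rat liver. Its counts were low, from 7 to 74 reads per library. On day 7 vehicle livers had 1.10, 1.75, 4.17, 2.11 and 1.34 CPM of Des and 15 mg/kg livers 0.636, 1.02, 1.07, 1.13 and 0.671 CPM. On day 14 the values were 3.04, 1.04, 3.33, 2.56 and 5.08 CPM in vehicle and 1.57, 1.75, 1.24, 0.749 and 1.11 CPM at 15 mg/kg. On day 28 they were 3.73, 3.29, 2.75, 2.11 and 3.13 CPM in vehicle and 0.974, 2.13, 0.673, 1.38 and 1.19 CPM at 15 mg/kg. The ranges overlapped on all 3 days, by a single liver on day 28. Des fell 2.25-fold on day 7 (-1.17 ± 0.42, adjusted p = 0.0499), 2.33-fold on day 14 (-1.22 ± 0.40, adjusted p = 0.0204) and 2.40-fold on day 28 (-1.26 ± 0.40, adjusted p = 0.019).

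The Des call of day 7 was lost in 8 of 10 fits that left out 1 library (vehicle replicate 2, 3 or 4 or any of the 15 mg/kg livers), with adjusted p-values up to 0.259, and in 4 of 9 alternative fits. That of day 14 was lost in 3 of 10, without vehicle replicate 5 or 15 mg/kg replicate 4 or 5, and that of day 28 in 2 of 10, without 15 mg/kg replicate 1 or 3. At 5 mg/kg on day 28 every liver (0.748 to 1.99 CPM) lay below every vehicle liver, with a difference of -1.11 ± 0.39 that missed the threshold (adjusted p = 0.055) and passed it in 7 of 9 alternative fits (adjusted p from 0.00283 to 0.0413). Ranges lay apart for 7.68% of all genes there.

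Rgs5 (ENSRNOG00000002730) encodes a regulator of G protein signalling known from pericytes and other mural cells. It ran from 2.27 to 12.7 CPM over the 60 libraries, and its group means ran from 4.71 CPM (vehicle, day 28) to 7.70 CPM (vehicle, day 14). Both ends of that order were vehicle groups. At 15 mg/kg its log2 differences were 0.09 ± 0.28, -0.55 ± 0.28 and 0.20 ± 0.28 on days 7, 14 and 28, with adjusted p-values of 0.906, 0.16 and 0.676. Their 95% intervals reached from -0.46 to 0.65, from -1.10 to 0.01 and from -0.36 to 0.76.

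Sparc (ENSRNOG00000012840) encodes osteonectin, a secreted protein that binds collagen. On day 7 vehicle livers had 287.3, 213.9, 279.8, 238.6 and 214.2 CPM of Sparc and 15 mg/kg livers 160.7, 183.4, 216.5, 137.6 and 118.2 CPM. On day 14 the values were 256.5, 204.9, 242.9, 200.7 and 219.8 CPM in vehicle and 146.9, 143.2, 153.5, 160.5 and 127.7 CPM at 15 mg/kg. On day 28 they were 144.5, 152.3, 119.0, 113.8 and 146.8 CPM in vehicle and 84.41, 117.3, 107.2, 128.7 and 94.71 CPM at 15 mg/kg. On day 14 every 15 mg/kg liver lay below every vehicle liver, and ranges lay apart in either direction for 12.6% of all genes. On days 7 and 28 the groups overlapped. Sparc fell 1.51-fold on day 7 (-0.60 ± 0.17, adjusted p = 0.0104) and 1.54-fold on day 14 (-0.62 ± 0.17, adjusted p = 0.00513), and the day 28 difference was -0.35 ± 0.17 (adjusted p = 0.16). The day 7 call was lost without 15 mg/kg replicate 5, the lowest liver (adjusted p = 0.0593). At 1 and 5 mg/kg the 6 differences of Sparc ran from -0.31 to 0.09 and none passed.

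Col3a1 (ENSRNOG00000003357) encodes the chain of type III collagen, a fibrillar collagen of the reticular fibres of liver. On day 7 vehicle livers had 271.6, 321.9, 393.9, 333.8 and 404.2 CPM of Col3a1 and 15 mg/kg livers 165.9, 254.2, 238.3, 114.1 and 96.26 CPM. The 2 groups did not overlap, which held for 9.77% of all genes in either direction. Col3a1 fell 1.99-fold (-0.99 ± 0.28, adjusted p = 0.0121), and the call was lost without 15 mg/kg replicate 4 or 5 (adjusted p up to 0.0686). On day 14 the livers had 292.5, 258.2, 274.7, 218.9 and 348.9 CPM in vehicle and 253.8, 145.3, 127.7, 214.3 and 179.0 CPM at 15 mg/kg. On day 28 they had 204.1, 189.8, 195.0, 124.5 and 207.3 CPM in vehicle and 101.0, 118.0, 178.3, 181.5 and 112.1 CPM at 15 mg/kg. On both later days the groups overlapped and the differences, -0.60 ± 0.28 and -0.41 ± 0.28, did not pass (adjusted p = 0.123 and 0.348). With the uncentred library score as a covariate the day 14 difference passed (-0.70 ± 0.28, adjusted p = 0.0378).

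Col1a1 (ENSRNOG00000003897) encodes the α1 chain of type I collagen, the main collagen of fibrotic liver. It varied more between rats of 1 group than any other tested gene of the panel, with a median coefficient of variation of 69.6% over the 12 groups, against 16.1% for Sparc. On day 14 vehicle livers had 2.67, 5.47, 2.18, 0.855 and 5.94 CPM of Col1a1, and 1 mg/kg livers 11.96, 9.68, 5.29, 4.26 and 10.61 CPM. At 15 mg/kg on day 14 they had 9.09, 3.16, 0.861, 7.37 and 4.70 CPM. All groups overlapped vehicle. The difference at 1 mg/kg was 1.28 ± 0.81 (adjusted p = 0.273) and that at 15 mg/kg 0.56 ± 0.81 (adjusted p = 0.662), with 95% intervals from -0.30 to 2.87 and from -1.02 to 2.14. Over the 9 dose comparisons its differences ran from -1.22 ± 0.80 to 1.28 ± 0.81, with 6 of them above 0, and none passed. With the centred score as a covariate the 1 mg/kg difference on day 14 passed as an increase (1.32 ± 0.51, adjusted p = 0.0271). It did not pass with the uncentred score, whose mean was -0.604 in vehicle and 0.473 at 1 mg/kg on day 14. The direction of the 15 mg/kg difference on day 14 turned with the uncentred library score as a covariate (-0.49).

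Col1a2 (ENSRNOG00000011292), which encodes the α2 chain of the same collagen, had 27 reads in total, at most 4 in a library, against 5142 for Col1a1 and 178608 for Col3a1. Whether the gene model used for counting captures its transcripts was not tested, so the count is not read as its expression. All 10 vehicle libraries of days 7 and 14 held 0 reads of it. A count of 3, the upper limit that a count of 0 allows, was 0.115 to 0.465 CPM over the 60 libraries, covering counting error only, and no comparison was made. Dcn (ENSRNOG00000004554) encodes decorin, a small leucine-rich proteoglycan that binds collagen fibrils. On day 14 vehicle livers had 14.7, 17.06, 18.56, 56.83 and 51.49 CPM of Dcn and 1 mg/kg livers 9.05, 6.70, 9.74, 13.85 and 14.27 CPM. The groups did not overlap, which held for 7.68% of all genes in either direction, and 2 vehicle livers stood far above the other 3. Dcn fell 2.95-fold there (-1.56 ± 0.48, adjusted p = 0.0399), a call lost in 6 of 10 fits that left out 1 library, by vehicle replicate 3, 4 or 5 or 1 mg/kg replicate 1, 2 or 3 (adjusted p up to 0.181). It was lost also without the filter on low counts, with limma-voom, in a fit of the 2 groups alone and with the uncentred library score as a covariate, whose group mean was -0.60 in vehicle and 0.47 at 1 mg/kg on day 14. At 5 and 15 mg/kg on day 14 the differences were -0.36 ± 0.47 and -0.94 ± 0.47 (adjusted p = 0.723 and 0.147). All 9 dose differences of Dcn were below 0, from -1.56 to -0.36.

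**Figure D3:**
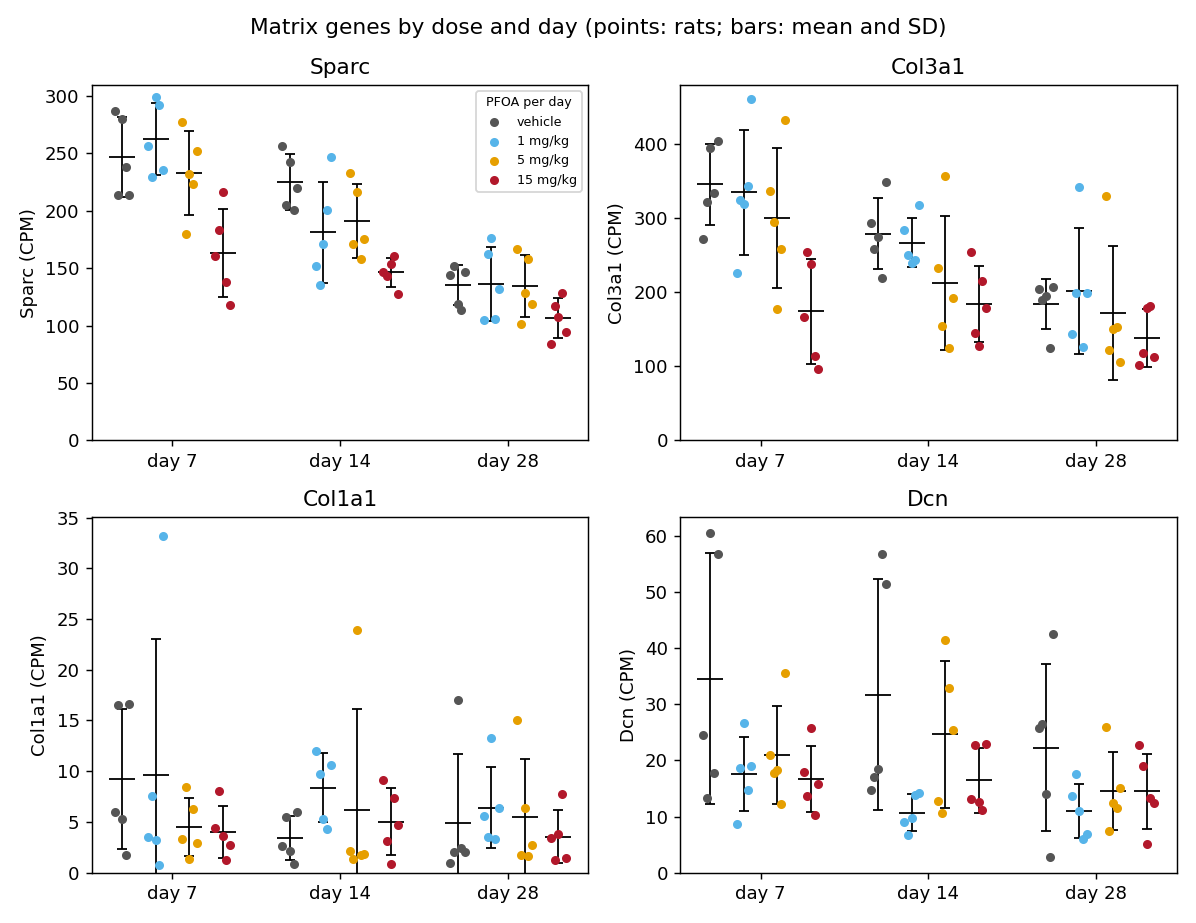
Points are the CPM of Sparc, Col3a1, Col1a1 and Dcn in each rat by day and dose, with group means and SD (n = 5). The vehicle means of Sparc run from 246.8 CPM on day 7 to 135.3 CPM on day 28, and single rats set the means of several Col1a1 groups, for example 23.92 CPM at 5 mg/kg on day 14.

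Timp1 (ENSRNOG00000010208) encodes an inhibitor of matrix metalloproteinases that is induced in liver injury. On day 14 vehicle livers had 4.98, 5.09, 7.04, 8.55 and 7.67 CPM of Timp1 and 15 mg/kg livers 2.45, 2.74, 5.07, 2.44 and 1.45 CPM. The groups overlapped by 1 liver. Timp1 fell 2.36-fold (-1.24 ± 0.39, adjusted p = 0.0158), and the call was lost without 15 mg/kg replicate 5, the lowest liver (adjusted p = 0.0612). On days 7 and 28 the 15 mg/kg differences were -0.91 ± 0.39 (adjusted p = 0.12) and -0.24 ± 0.39 (adjusted p = 0.72). The day 28 group held 1 liver at 7.39 CPM beside 4 between 1.68 and 2.41 CPM. At 1 and 5 mg/kg the 6 differences ran from -0.92 to -0.21, and none passed. With the centred library score as a covariate 3 more Timp1 differences passed. That at 15 mg/kg on day 7 was -0.81 ± 0.22 (adjusted p = 0.00267). Those at 1 and 5 mg/kg on day 14 were -0.94 ± 0.21 and -0.63 ± 0.21 (adjusted p = 0.000189 and 0.0168). With the uncentred score 15 mg/kg on day 7 and 5 mg/kg on day 14 passed (adjusted p = 0.00323 and 0.00398). The 1 mg/kg difference on day 14 did not pass with it. That difference passed without the low-score libraries (-1.12 ± 0.36, adjusted p = 0.0249).

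**Figure D4:**
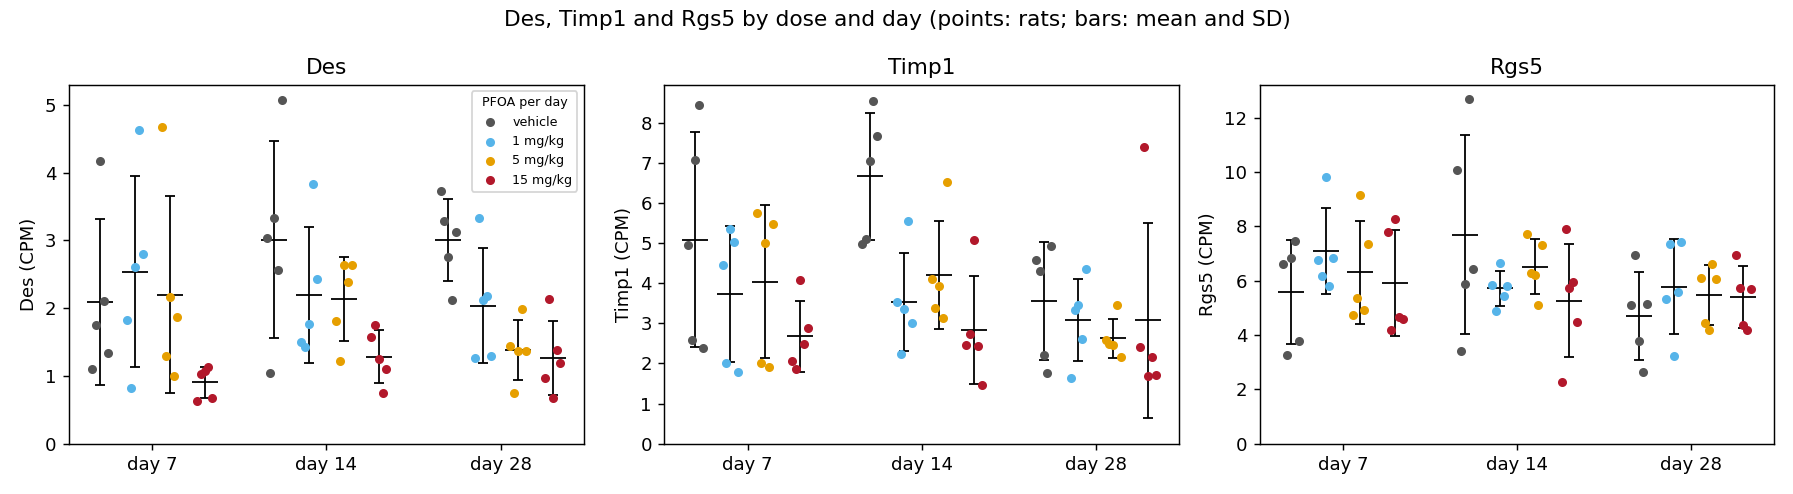
Points are the CPM of Des, Timp1 and Rgs5 in each rat by day and dose, with group means and SD (n = 5). The 15 mg/kg means of Des lie between 0.906 and 1.28 CPM, below the vehicle means of 2.09 to 3.01 CPM, and every treated Rgs5 group overlaps the vehicle of its day.

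The library score was compared with each of the 9 genes within groups. Over the 60 libraries the deviation of Timp1 from its group mean had a Pearson r of -0.845 (Spearman rho -0.844) with the score, and Col1a1 an r of 0.796 (rho 0.809). Each had a permutation p of 1e-05, the smallest that 100000 permutations within groups can give, and Benjamini-Hochberg adjusted values over 45 relations of 0.000112 for r and 0.000225 for rho. Without the 2 libraries farthest from the median score r was -0.821 for Timp1 and 0.783 for Col1a1. For Lrat r was 0.17 (rho 0.127, permutation p = 0.283 and 0.392, adjusted 0.377 and 0.491), and for Hgf it was -0.451 (rho -0.485, permutation p = 0.00132 and 0.00056, adjusted 0.00424 and 0.00194), and -0.436 without the 2 farthest libraries. For Des r was -0.581 (rho -0.555, permutation p = 1e-05 and 3e-05, adjusted 0.000112 and 0.00027), for Rgs5 -0.472 (rho -0.487, permutation p = 0.00048 and 0.00041, adjusted 0.0018 and 0.00154) and for Sparc -0.324 (rho -0.33, permutation p = 0.0114 and 0.0121, adjusted 0.0256 and 0.0287), and without the 2 farthest libraries it was -0.587, -0.482 and -0.315. Dcn and Col3a1 did not pass (r -0.269 and 0.227, rho -0.266 and 0.193, permutation p of r 0.0722 and 0.0958, adjusted 0.12 and 0.153). With the centred score as a covariate, which cannot adjust for score differences between groups, all 18 calls passed. With the uncentred score all but that of Dcn passed.

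Among the 36 pairs of the 9 genes the within-group r ran from -0.548 to 0.599 with a median of 0.199, and 28 were above 0. Sparc and Col3a1 had the highest, 0.599 (rho 0.599, permutation p = 2e-05 for both, adjusted 0.00018 and 0.000225) and of 0.582 without the 2 libraries farthest in Sparc. Col1a1 and Col3a1 had an r of 0.591 (rho 0.564, permutation p = 1e-05 and 2e-05, adjusted 0.000112 and 0.000225), and of 0.529 without the 2 libraries farthest in Col1a1. For Hgf and Lrat r was 0.352 (rho 0.34, permutation p = 0.017 and 0.0165, adjusted 0.0348 and 0.037), and 0.329 without the 2 libraries farthest in Hgf. Col1a1 and Timp1 had the lowest r, -0.548 (rho -0.559, permutation p = 6e-05 for both, adjusted 0.00045 for both), and -0.552 without the 2 libraries farthest in Col1a1. Hgf and Col1a1 had an r of -0.432 (rho -0.433, permutation p = 0.0019 and 0.00137, adjusted 0.00503 and 0.00411), and -0.496 without the 2 libraries farthest in Hgf. Col1a1 and Rgs5 had an r of -0.392 (rho -0.421, permutation p = 0.00368 and 0.00221, adjusted 0.0092 and 0.00585). Without the 2 libraries farthest in Col1a1 it was -0.436. With the centred library score removed from each gene, r was 0.386 for Col1a1 and Timp1 and -0.134 for Hgf and Col1a1. It was then -0.031 for Col1a1 and Rgs5 and 0.73 for Sparc and Col3a1. For Col1a1 and Col3a1 it was 0.697, and for Hgf and Lrat 0.488. These values after removal of the score were not tested.

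In vehicle livers Sparc fell between day 7 and day 28. It went from 246.8 ± 35.1 to 135.3 ± 17.6 CPM (SD, n = 5), every day 28 liver lay below every day 7 liver, and the log2 difference was -0.87 ± 0.17 (adjusted p = 0.0202). Only 5 genes, 0.0411% of all tested, were called in either direction in this comparison. The call was lost in 5 of 10 fits that left out 1 library (vehicle day 7 replicate 1 or 3, vehicle day 28 replicate 1, 3 or 4; adjusted p up to 0.179) and in a fit of the 2 groups alone (adjusted p = 1). Col3a1 went from 345.1 ± 54.6 to 184.1 ± 34.1 CPM without overlap, which held for 0.723% of all genes, and did not pass (-0.91 ± 0.28, adjusted p = 0.499).

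Between vehicle days 14 and 7, and between vehicle days 28 and 14, 0 of the 9 genes and 0% of all genes were called by edgeR, with 2 and 6 of the 9 genes, and 508 and 1142 of all genes, at an unadjusted p below 0.05. In vehicle Lrat stood at 32.78 ± 9.43 CPM on day 7, 61.29 ± 9.99 on day 14 and 30.33 ± 12.5 on day 28 (SD, n = 5). The day 14 livers of Lrat all lay above those of day 7 (0.90 ± 0.26, adjusted p = 0.668), and 0.748% of all genes had ranges apart in either direction. With the centred library score as a covariate Hgf and Lrat were called higher on day 14 than on day 7 (adjusted p = 0.0233 and 0.0103). With the uncentred score neither was called. The mean uncentred score of vehicle was -0.073 on day 7 and -0.604 on day 14. DESeq2's Wald test called 2 of the 9 genes lower on day 28 than on day 14, Sparc and Lrat (adjusted p = 0.0316 and 0.0421). With the centred library score as a covariate 5 were called lower, Hgf, Sparc, Lrat, Rgs5 and Timp1, with adjusted p-values from 0.000544 to 0.0377. With the uncentred score these were called except Rgs5, with adjusted p-values from 0.0237 to 0.0413. Vehicle of day 14 had the highest mean of the 12 groups for Hgf, Lrat, Rgs5, Des and Timp1.

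Between doses on day 7, 5 of the 9 genes were lower at 15 than at 1 mg/kg, namely Hgf (-1.82 ± 0.23, adjusted p = 9.79e-08), Sparc, Col3a1, Lrat and Des, where 6.19% of all genes were called lower. Lrat was lower there by -0.94 ± 0.26 (adjusted p = 0.01) with the livers of 1 mg/kg at 22.64 to 65.9 CPM. Hgf was also lower at 15 than at 5 mg/kg on day 7 (-0.98 ± 0.22, adjusted p = 0.031), where 0.164% of all genes were, and the ranges lay apart, as for 1.29% of all genes in either direction. In this comparison 0 genes of the panel were called without 5 mg/kg replicate 3 or 5 or 15 mg/kg replicate 4 or 5. A fit of the compared groups alone called 1 gene of the panel between 15 and 1 mg/kg on day 7 and 0 between 15 and 5 mg/kg. On day 14 no gene of the panel passed between 15 and 1 mg/kg (all genes 2.89% lower), and Hgf had a difference of -0.65 ± 0.22 (adjusted p = 0.0641). On day 28 Hgf (-0.76 ± 0.22, adjusted p = 0.0299) and Lrat (-0.88 ± 0.26, adjusted p = 0.0327) were lower at 15 than at 1 mg/kg (all genes 2.24%). At most 1 of these 2 calls was left in 8 of the 10 fits that left out 1 library. Neither was left without 1 mg/kg replicate 2 or 15 mg/kg replicate 4 or 5. None of the 9 passed between 15 and 5 mg/kg on day 14 (all genes 0% lower) or day 28 (all genes 0.00822% lower).

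The genes whose 12 group means were most like those of each gene were searched among 10595 genes with a mean of at least 1 CPM, by Pearson's r of log2 CPM, as a description with no test, since the 12 means share dose, day and libraries. For Hgf they were Shisa3 (r = 0.979), Fgl2 (0.978) and Tlr7 (0.971). For Lrat they were Adgre4 (0.978), Tagln2 (0.959) and Tspan13 (0.955). For Des they were Arrb2 (0.981), Wfdc1 (0.959) and Oaz2 (0.952). For Sparc they were Cnrip1 (0.949), Glrx (0.945) and Kdelr3 (0.945). For Col1a1 they were matrix genes in part, namely the type VI collagen chain Col6a2 (0.877), elastin (Eln, 0.859) and the carboxypeptidase Cpz (0.833).

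Related gene lists were read at 15 mg/kg, where 7.21%, 10.2% and 8.31% of all genes fell and 6.77%, 12.7% and 8.89% rose on days 7, 14 and 28. Of 13 collagen processing enzymes 4 fell on each of the 3 days, 1, Bmp1, rose on day 14 (0.63 ± 0.18, adjusted p = 0.00868), and 9, 8 and 9 did not pass, among them the cross-linking and lysyl hydroxylase genes Loxl1, Loxl2, Plod1, Plod2 and Plod3 on every day. Lox, the lysyl oxidase that cross-links collagen and elastin, had mean levels of 17.61, 37.88 and 43.26 CPM in vehicle and 1.82, 2.51 and 1.83 CPM at 15 mg/kg on days 7, 14 and 28. Its log2 differences were -3.27 ± 0.68, -3.89 ± 0.68 and -4.56 ± 0.71 (adjusted p = 0.000422, 2.4e-05 and 2.5e-06). P4hb, the β subunit of prolyl 4-hydroxylase and a protein disulfide isomerase, fell by 0.64, 0.76 and 0.62 on the log2 scale, and P4ha1, an α subunit, fell by 0.63, 1.01 and 0.62. Serpinh1, the collagen chaperone HSP47, fell on days 7 and 14 (-0.80 and -0.76), and Pcolce, an enhancer of procollagen cleavage, on day 28 (-0.87).

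Of 11 other collagens tested 1, Col27a1, fell on days 7 and 14 (-2.13 ± 0.61 and -1.65 ± 0.58), at 15 mg/kg means of 0.352 and 0.486 CPM, and none changed on day 28. Of 16 matrix glycoproteins and proteoglycans 3 fell on day 7 and 2 on day 14, among them the laminin chain Lamb1 (-1.03 and -0.77) and fibulin-5 (Fbln5, -1.10 and -1.03). Nid1, the basement membrane protein nidogen-1, rose on days 14 and 28, from 19.3 to 56.98 CPM and from 14.35 to 46.41 CPM (1.56 ± 0.53 and 1.69 ± 0.53, adjusted p = 0.0258 and 0.0194). Nid2 fell on day 7 (-0.95). Of 8 matrix proteases and inhibitors tested 2 fell on every day, urokinase (Plau, -1.08, -1.23 and -0.74) and Timp2 (-0.89, -0.91 and -0.80).

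Of 18 genes of TGF-β and PDGF signalling 2, 4 and 3 fell at 15 mg/kg on days 7, 14 and 28 and none rose. Pdgfc, a ligand of the PDGF receptor α on mesenchymal cells, went from 15.72 to 4.36, from 18.64 to 3.63 and from 14.41 to 3.56 CPM (-1.85 ± 0.29, -2.36 ± 0.30 and -2.004 ± 0.294, adjusted p = 7.13e-06, 3.81e-08 and 8.15e-07). The type I TGF-β receptor gene Tgfbr1 fell on all 3 days (-0.67, -0.71 and -0.48), and the inhibitory genes Smad7 and Bambi fell on day 14 (-1.03 and -0.91), Smad7 also on day 28 (-1.14). Of 9 genes of HGF activation and reception none changed on day 7. On day 14 the protease gene St14 fell (-1.28 ± 0.34), and on day 28 Spint2, an inhibitor of HGF activator, and hepsin (Hpn), a protease that can activate HGF, fell (-0.70 ± 0.18 and -0.56 ± 0.17).

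Of 10 genes of retinoid storage and transport tested, 2 rose and 2 fell at 15 mg/kg on day 7, 3 rose and 4 fell on day 14, and 2 rose and 2 fell on day 28. Lpl, lipoprotein lipase, rose on all 3 days (3.69 ± 0.47, 3.39 ± 0.47 and 3.97 ± 0.48), as did Dgat1, an acyltransferase that can also esterify retinol (1.12, 1.20 and 1.14). Rdh10, a retinol dehydrogenase, fell on all 3 days (-0.86, -0.83 and -1.03), as did the plasma carrier gene Ttr (-1.94, -2.04 and -1.94), which hepatocytes express. The rise of Lpl and Dgat1 and the fall of Lrat concern different enzymes of one list, and no direction is given to the list.

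**Figure D5:**
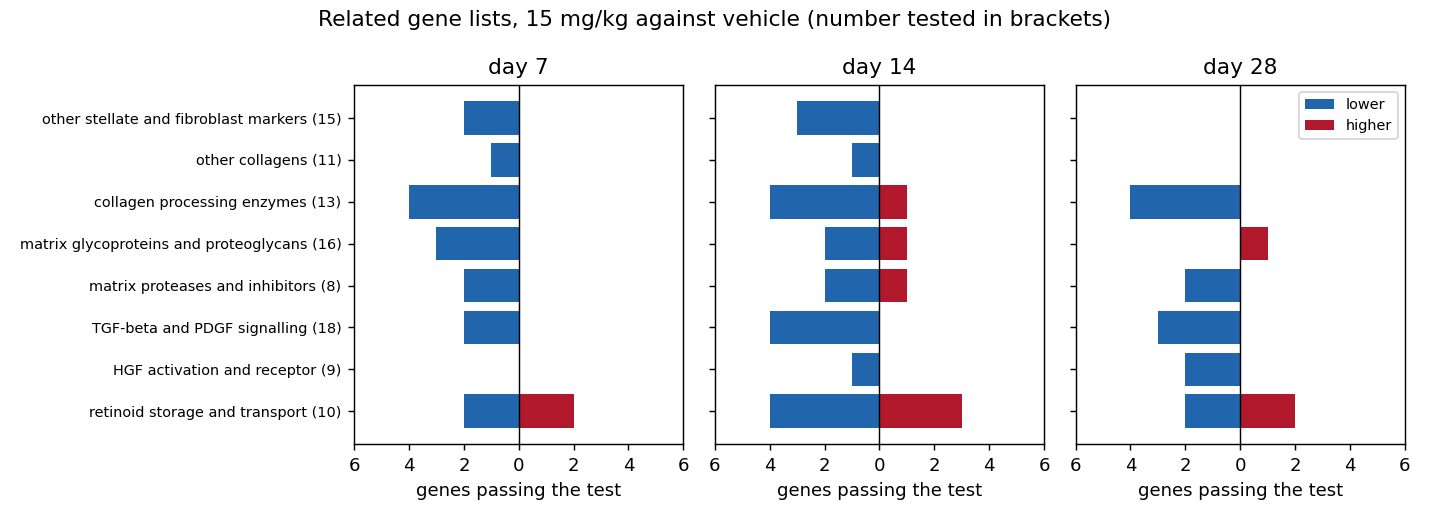
Bars give, for 8 related gene lists at 15 mg/kg, how many tested genes fell (left, blue) or rose (right, red) on each day, with the number tested in brackets. Collagen processing enzymes show 4 lower genes on every day, and retinoid genes fall and rise in similar numbers.

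Markers of other cell types were read at 15 mg/kg beside the same shares of all genes, 7.21%, 10.2% and 8.31% lower on days 7, 14 and 28. Of 15 other stellate and fibroblast markers tested 2 fell on day 7 (Tcf21 and Hand2, transcription factors of stellate cells). Hand2 was low, with means of 0.247 CPM at 15 mg/kg and 0.815 CPM in vehicle on day 7. On day 14, 3 of these markers fell (Gfap, Colec11 and Tcf21), on day 28 0 fell, and none rose. The summed level of the 19 markers of that list ran from 598.9 to 977.9 CPM in vehicle and from 370.7 to 628.3 CPM at 15 mg/kg on day 14, and on days 7 and 28 it ran from 563.2 to 923.8 and from 495.9 to 1021 CPM in vehicle and from 337 to 631.4 and from 344.1 to 506.4 CPM at 15 mg/kg. Of 11 Kupffer cell markers 2, 9 and 4 fell on days 7, 14 and 28, and their sum on day 14 ran from 617.5 to 1101 CPM in vehicle and from 173.3 to 469.5 CPM at 15 mg/kg, without overlap. On days 7 and 28 the Kupffer sums overlapped, at 425.5 to 845.2 and 355.1 to 681.8 CPM in vehicle and 224.3 to 508.6 and 212.5 to 371.3 CPM at 15 mg/kg. Clec4f, the lectin that defines these macrophages in rodents, fell on day 14 (-1.62 ± 0.34).

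Of 7 hepatocyte markers 6, 6 and 4 fell, and their sum ran from 124600 to 190700 CPM in vehicle and from 61190 to 130300 CPM at 15 mg/kg on day 14. Of 10 sinusoidal endothelial markers 0, 2 and 0 fell, with sums of 364.1 to 518.2 CPM in vehicle and 318.4 to 365.6 CPM at 15 mg/kg on day 14. Of 4 cholangiocyte markers tested 1, Epcam, rose on day 7 (0.89 ± 0.28), and none of 4 vascular smooth muscle and 3 mesothelial markers changed at 15 mg/kg. The smooth muscle sum overlapped on every day, for example 36.18 to 103.7 CPM in vehicle and 19.61 to 75.25 CPM at 15 mg/kg on day 14, and the mesothelial sum was at most 13.24 CPM in these groups of day 14. Among the defining markers Mfap4 was at 0 in all 60 libraries. The part of these cell types in the decreases of the panel was not tested.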

How the data were processed

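Liver polyA RNA of 60 rats was sequenced from stranded libraries (TruSeq Stranded mRNA HT kit, per the labels' protocols). Per the submitters' processing notes the tools were bcl2fastq 2.20.0.422, Trimmomatic 0.33, STAR 2.5.2b and featureCounts of Subread 1.6.0, with the build Rnor_6.0; the strand setting of the counting is not given in the sources used here. The deposited table holds raw read counts per Ensembl gene with symbols. In RefSeq's GRCr8 annotation 6 of the 10 genes overlap another gene (Timp1 overlaps Syn1, Col1a1 overlaps Sgca; Hgf, Dcn, Lrat and Des overlap uncharacterised loci), so shared reads there are uncertain. Genes that the table lists with no symbol (10602, with 1.39% of all reads) stayed in the fit.

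Counts were fitted with edgeR 4.0.16 (R 4.3.3): TMM scaling, filterByExpr (minimum count 10, minimum total 15), 1 group-means model of the 12 groups with 48 residual degrees of freedom, robust quasi-likelihood F tests, two-sided, Benjamini-Hochberg over 12167 genes. The standard error is the log2 fold change divided by the square root of F, and 95% intervals are normal intervals from it. CPM are TMM-scaled and carry no transcript length, so levels were not compared between genes. Alternatives used DESeq2 1.42.0, limma 3.58.1 (voom), other scaling and filters, the compared groups alone, each library left out, and a library score (500 genes, listed genes left out). The uncentred form of the score was added after seeing the data. No pair of libraries of a group agreed within sampling noise (lowest chi-square per degree of freedom 18.5).

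Groups came from the treatment labels, and replicates were numbered in accession order. The members and all gene lists were chosen with earlier results of these data known. The text names all 10 members, for each other list the counts and up to 4 called genes per day, taken by p from the 15 mg/kg comparison, 3 genes most like each of Hgf, Col1a1 and any member called in 2 or more comparisons, and Acot1, Ehhadh and Cyp4a1; Bmp1 falls outside this rule and was named after its values were seen. Pecam1, Timd4, Col6a3, Hspg2 and Rbpr2 were not matched by symbol and were not analysed here. The result of 1 gene of the matrix protease list is not reported here. Intervals and count floors cover counting error only where they rest on counts.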

Additional observations from a re-analysis of the deposited data

Results flagged for a closer look

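Within groups of 5, a rat stood apart from the others of its group by a Dixon gap test in 9 of the 108 gene-by-group sets examined, and chance flags about 1 in 20. Hgf was 39.55 CPM in replicate 1 at 5 mg/kg on day 14, beside 18.64 to 20.75 CPM in the others. Col1a1 was high in 3 groups, at 33.19 CPM in replicate 5 at 1 mg/kg on day 7, at 23.92 CPM in replicate 3 at 5 mg/kg on day 14 and at 17.05 CPM in replicate 3 of vehicle on day 28. Col3a1 was low at 124.5 CPM in replicate 4 of vehicle on day 28 and high at 329.9 CPM in replicate 1 at 5 mg/kg on day 28. Rgs5 was 9.80 CPM in replicate 3 at 1 mg/kg on day 7. Timp1 was 6.52 CPM in replicate 5 at 5 mg/kg on day 14 and 7.39 CPM in replicate 2 at 15 mg/kg on day 28.

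The effect of 1 mg/kg differed between days 14 and 7 for Hgf (difference of log2 effects -1.58, adjusted p = 0.0127, edgeR) and Lrat (-1.64, adjusted p = 0.0472, edgeR). For Rgs5 all 5 rats at 1 mg/kg were above the vehicle mean on day 7 (log2 fold change 0.35) and all 5 below it on day 14 (-0.43), and the difference of the effects was -0.78 (adjusted p = 0.37, edgeR).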

How the results depend on the processing

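No paired analysis was made, because each library came from a different rat. Of the 18 calls, 9 were lost on leaving out no library and 11 under none of the other alternatives. Changes of direction occurred in 24 single-gene results, and none of these was called in the main or the alternative fit.

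The number of genes of the panel called moved as follows. With the centred library score it went from 0 to 1 at 5 mg/kg on day 7, from 3 to 5 at 1 mg/kg on day 14, from 1 to 2 at 5 mg/kg on day 28, from 0 to 2 for vehicle day 14 against 7, from 0 to 5 for vehicle day 28 against 14, from 1 to 4 for 15 against 5 mg/kg on day 7, from 0 to 1 and 2 for 15 against 1 and 5 mg/kg on day 14, and from 0 to 1 for the 5 mg/kg effect of day 28 minus day 7. With the uncentred score it was 1 at 5 mg/kg on day 7, 2 at 5 mg/kg on day 28, 4 for vehicle day 28 against 14, 2 for 15 against 5 mg/kg on day 7 and 1 for 15 against 1 mg/kg on day 14. At 5 mg/kg on day 28 it was also 2 with DESeq2's Wald test, limma-voom and either set of low-score libraries left out, and for vehicle day 28 against 14 it was 2 with the Wald test. In fits of the compared groups alone it was 1 at 15 mg/kg on day 7, 0 for vehicle day 28 against 7, 1 and 0 for 15 against 1 and 5 mg/kg on day 7, 1 for 15 against 1 mg/kg on day 28 and 0 for the 1 mg/kg effect of day 14 minus day 7, fits with fewer samples. Without the filter it was 0 for 15 against 5 mg/kg on day 7 and 15 against 1 mg/kg on day 28 and 1 for that effect, as with voom. The cause of these moves was not tested.

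Log2 fold changes that turned sign were all small or variable. With the uncentred score Col1a1 was -0.34 at 1 mg/kg on day 7, -0.49 at 15 mg/kg on day 14, -0.32 at 1 and -0.35 at 5 mg/kg on day 28 and -0.28 for vehicle day 28 against 14; Timp1 on day 28 was 0.42, 0.015 and 0.047 at 1, 5 and 15 mg/kg; Des was -0.12 at 5 mg/kg on day 7; Col3a1 was -0.002 at 1 and Sparc 0.056 at 5 mg/kg on day 28. Col1a1 at 1 mg/kg on day 7 was -0.42 with voom and -0.21 with the centred score, and at 15 mg/kg on day 28 it was 0.038 with voom. Des on day 7 was -0.025 at 1 mg/kg without the low-score libraries and -0.37 at 5 mg/kg without those low in the uncentred score. Sparc on day 28 at 1 mg/kg was -0.021 with DESeq2's size factors or Wald test, -0.013 with voom and -0.032 in the groups alone, and at 5 mg/kg 0.03 without the filter. Des for vehicle day 28 against 14, 0 in the main fit, was 0.005, 0.015, 0.006, 0.14, 0.021 and 0.16 with size factors, no filter, the Wald test, voom, the centred and the uncentred score, and 0.01 with either set of low-score libraries left out.

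Leaving out 1 library at a time, Col1a1 ran from -1.29 to 0.40 at 1 mg/kg on day 7, -0.94 to 1.18 at 5 mg/kg on day 14, -0.082 to 1.76, -0.69 to 1.53 and -0.99 to 0.90 at 1, 5 and 15 mg/kg on day 28, and -0.83 to 0.83 for vehicle day 28 against 14. Col3a1 at 1 mg/kg ran from -0.18 to 0.066, -0.14 to 0.047 and -0.15 to 0.25 on days 7, 14 and 28, and from -0.49 to 0.035 at 5 mg/kg on day 28. Dcn ran from -0.45 to 0.19 for vehicle day 14 against 7. Des ran from -0.032 to 0.68 and -0.40 to 0.53 at 1 and 5 mg/kg on day 7 and from -0.20 to 0.29 for vehicle day 28 against 14. Lrat ran from -0.36 to 0.045 for vehicle day 28 against 7. Rgs5 ran from -0.062 to 0.22 at 15 mg/kg on day 7 and -0.42 to 0.002 at 5 mg/kg on day 14. Sparc ran from -0.15 to 0.028 at 5 mg/kg on day 7, and from -0.10 to 0.089 and -0.12 to 0.069 at 1 and 5 mg/kg on day 28. The number of panel genes called ran from 1 to 4, 3 to 6 and 1 to 3 at 15 mg/kg on days 7, 14 and 28. It ran from 0 to 2 at 5 mg/kg on day 28 and for 15 against 5 mg/kg on day 7. The same held for 15 against 1 mg/kg on day 28 and for the 1 mg/kg effect of day 14 minus day 7. For vehicle day 28 against 7 and against 14 it ran from 0 to 1. The depth of Des, 7 to 74 reads per library, limits its precision.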
